A study of Mus musculus with 12 samples.

Results

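The genes described here are 10 genes of fat cells and lipid droplets, chosen by symbol, and all 10 were found among the 34348 genes of the deposited expression table. They are the fat cell hormone and secreted protein genes Adipoq, Lep, Retn and Cfd, the lipid droplet protein genes Plin1, Plin4 and Cidec, and Fabp4, Lpl and Pparg for fatty acid handling and its control. The question was how the hormone genes, which mark fat cells, compare with droplet genes that absorptive enterocytes also use. Total RNA of small intestine and of liver from C57BL/6 mice was sequenced in 4 groups of 3 libraries. These were PBS intestine and PBS liver (labelled replicates 2, 3 and 4) and LCWE intestine and LCWE liver (labelled replicates 1, 2 and 4). LCWE is not spelled out in the labels. It usually stands for a Lactobacillus casei cell wall extract, with which a Kawasaki-like vasculitis is provoked in mice. The headers of the authors' deposited table write LCWECFA for the treated groups, so a second agent cannot be told apart from LCWE here. Age, sex, time after treatment, the segment of intestine and the cells included were not given in the sources used here, and neither was whether each library is a separate animal. P-values therefore measure the spread between these libraries, which may be technical.

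White fat cells store triglyceride in a large droplet coated by perilipins and CIDE proteins, and they secrete hormones such as adiponectin and leptin. Their identity depends on PPARG, a nuclear receptor that acts with RXR and with C/EBP factors. Enterocytes make short-lived droplets after a fatty meal, before chylomicrons are exported, and hepatocytes hold droplets coated mainly by other perilipins. The outer wall of the bowel joins the mesentery, whose fat carries these hormones. In whole tissue, fewer cells of a type and less RNA per cell cannot be told apart.

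Levels are given as RPKM, reads scaled to the exon length of the gene and the size of the library, so they can be compared between genes. Reads assigned to genes ran from 30294594 to 44921885 per library. Genes with at least 0.5 RPKM in at least 3 libraries of the fit were tested with limma on log2(RPKM + 0.5), which understates the change of low genes, and called at a Benjamini-Hochberg adjusted p below 0.05 over all genes tested. The albumin gene Alb stood at 10520 to 23560 RPKM in livers and 51.6 to 145 RPKM in intestines, and the enterocyte gene Fabp2 at 38.6 to 113 RPKM and 676 to 9408 RPKM. In the intestine 7 of the 10 genes passed this filter and in liver 5 did. Adipoq and Cfd passed it in the intestine only through the PBS libraries and LCWE replicate 1, so a difference was favoured by the filter.

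The sequence just upstream of the start site was read for 8 of the 10 genes, 11 windows of 250 bases in all, from the RefSeq promoter table (GRCm38.p6, the mm10 coordinates). Fabp4 and Lpl had no entry. Adipoq, Lep and Cidec were all lower in every LCWE intestine. The windows of Adipoq and Lep are shown as those of hormone genes with the same order over the PBS intestines. Both start sites of Cidec are shown as those of a droplet gene without that order. The windows lie at chr16:23146286-23146535 (plus strand, Adipoq), chr6:29059971-29060220 (plus strand, Lep), chr6:113435761-113436010 (minus strand, upstream start of Cidec) and chr6:113434765-113435014 (minus strand, downstream start of Cidec). Each is written 5′ to 3′ on the strand of the gene, and capitals mark matches to the C/EBP motif TTGCNNAA.
Adipoq: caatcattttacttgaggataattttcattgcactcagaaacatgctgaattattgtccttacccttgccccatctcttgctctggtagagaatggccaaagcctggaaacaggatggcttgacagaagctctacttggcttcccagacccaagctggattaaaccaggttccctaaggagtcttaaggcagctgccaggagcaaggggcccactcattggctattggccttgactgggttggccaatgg
Lep: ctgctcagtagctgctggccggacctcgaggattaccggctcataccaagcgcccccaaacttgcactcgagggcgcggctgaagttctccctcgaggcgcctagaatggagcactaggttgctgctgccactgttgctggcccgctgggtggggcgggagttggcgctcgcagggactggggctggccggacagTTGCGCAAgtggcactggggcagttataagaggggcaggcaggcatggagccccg
Cidec, upstream start: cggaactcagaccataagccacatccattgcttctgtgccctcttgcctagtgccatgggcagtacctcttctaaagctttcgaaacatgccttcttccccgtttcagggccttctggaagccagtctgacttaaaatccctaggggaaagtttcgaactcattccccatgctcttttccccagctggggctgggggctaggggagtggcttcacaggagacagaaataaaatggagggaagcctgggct
Cidec, downstream start: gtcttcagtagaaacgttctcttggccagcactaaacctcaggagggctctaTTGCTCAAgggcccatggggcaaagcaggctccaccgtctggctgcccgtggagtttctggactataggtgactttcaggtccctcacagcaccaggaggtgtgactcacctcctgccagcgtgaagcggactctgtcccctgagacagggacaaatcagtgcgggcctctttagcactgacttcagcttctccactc
A pair of motifs was searched on both strands, and no match of one overlapped a match of the other. The PPAR and RXR direct repeat AGGTCANAGGTCA was in none of the 11 windows and in 0.0335% of all 32851 windows of this length in the table. TTGCNNAA was in 4 of the 11 windows, 1 each of Lep, Plin1, Cidec and Pparg, and in 9.56% of all windows. In Lep the match is TTGCGCAA, which reads the same on both strands, 55 to 48 bases before the start. In Cidec it is TTGCTCAA, 198 to 191 bases before the downstream start, and the upstream start and Adipoq had none. A match describes letters only, and the table of RPKM does not separate the 2 starts of Cidec.

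The fat cell hormone genes were lower in every LCWE intestine than in every PBS intestine for Adipoq, Lep and Cfd, and overlapped for Retn. Adipoq (chr16:23146536-23158028, plus strand) encodes adiponectin, a fat cell hormone that raises insulin sensitivity. It measured 1.18, 8.01 and 14.2 across PBS replicates 2, 3 and 4 versus 0.612, 0.250 and 0.128 RPKM across LCWE replicates 1, 2 and 4. PBS replicate 2 was thus nearest to the LCWE libraries, which were all below it. The difference was -2.88 on the log2 scale (SE 0.76; 95% interval -4.68 to -1.08), with an adjusted p of 0.254 by limma. Cfd (chr10:79890853-79892656, plus strand) encodes adipsin, the complement factor D that fat cells secrete. It had 0.908, 9.00 and 18.6 RPKM with PBS, against 0.592, 0.125 and 0.320 RPKM with LCWE, a difference of -2.94 (SE 0.89; adjusted p = 0.304 by limma). Of the 17510 genes tested in the intestine, 0% passed by limma and 0 passed with limma voom on recovered reads, while 2202 (12.6%) had an unadjusted p below 0.05, 4.89% of all tested with a lower mean in LCWE. None of the 10 genes passed the adjusted test by limma in this fit.

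Lep (chr6:29060220-29073877, plus strand) encodes leptin, the satiety hormone of fat. It was too low to be tested, at 0.344, 1.26 and 2.23 RPKM in PBS and 0, 0.0172 and 0.0176 RPKM in LCWE. In reads this was 44, 135 and 227 against 0, 2 and 2, so the groups did not overlap, and the library at 0 allows up to 3 reads. Retn (chr8:3655770-3660110, plus strand) encodes resistin, a cysteine-rich peptide that mouse fat cells secrete. It had 3, 30 and 71 reads in PBS and 0, 6 and 2 in LCWE, so PBS replicate 2 lay within the LCWE range. The floor of 3 reads covers counting error only and takes reads as independent. Many low counts, such as those of Lep in LCWE, were even, so reads may not be independent and the floor may be too low. The authors' deposited table lists 220 genes for the intestine, among them 8 of the 10, all but Retn and Pparg, each with a negative log2 fold change. What share of all genes was listed, and what share of the listed genes is negative, is not given here. Nothing is therefore read from that count. In the deposited table Lep has -6.94 and a p-value of 9.48e-05, yet a false discovery rate of 0.469, and no gene of that comparison is below 0.05.

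**Figure D1:**
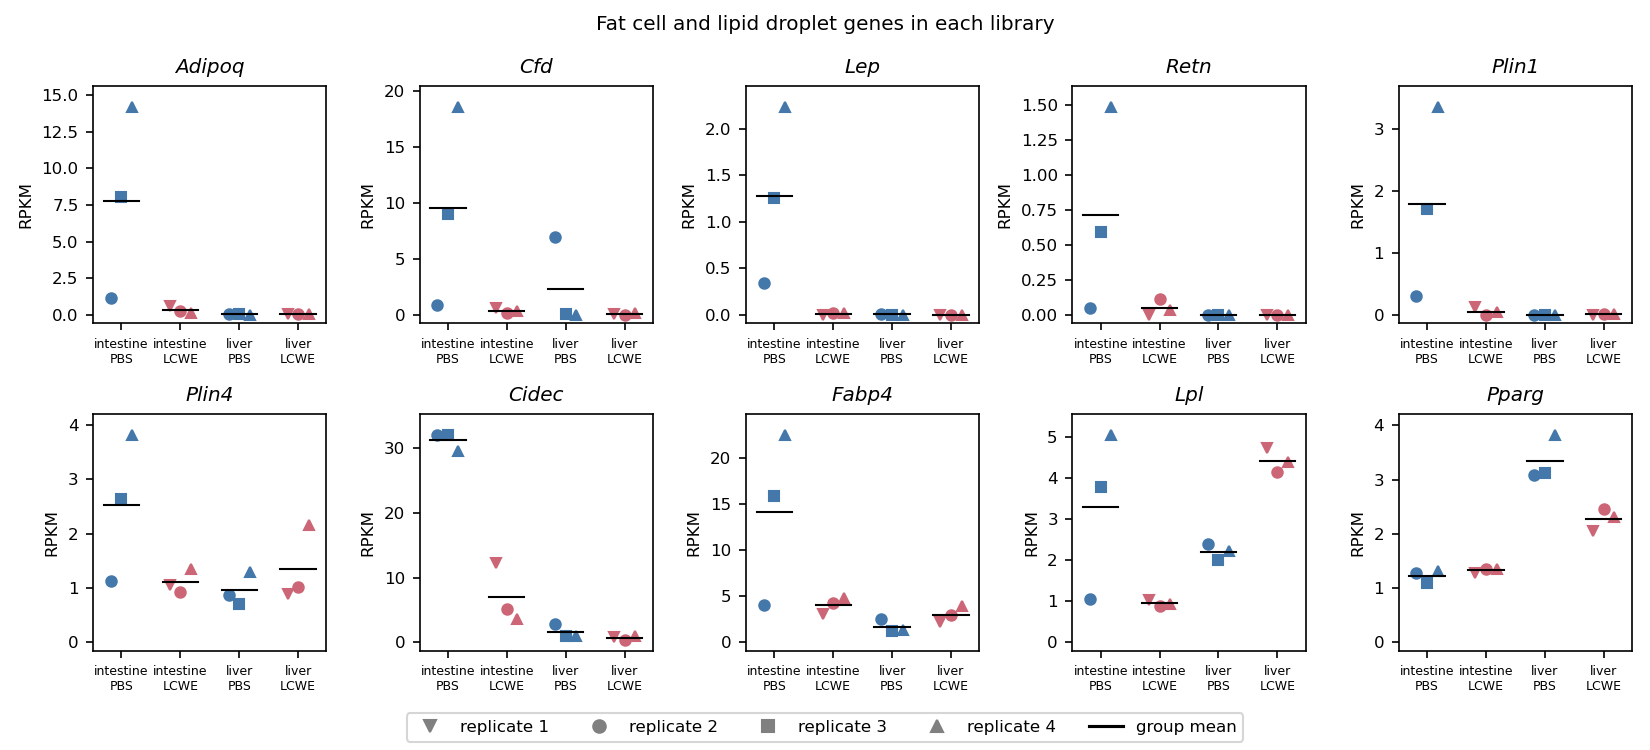
RPKM (linear axis from 0, own scale per gene) of the 10 genes in each of the 12 libraries, by tissue and treatment; symbols give the labelled replicate and black lines the mean of 3 libraries. Among PBS intestines the hormone genes and Plin1 spread widely, from 1.18 to 14.2 RPKM for Adipoq, while Cidec stays between 29.5 and 32.1 RPKM.

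Of the lipid droplet genes, Plin1 had the order of the hormone genes over the PBS intestines and Cidec did not, and both were lower in every LCWE intestine. Plin1 (chr7:79720218-79732903, minus strand), the perilipin that guards the droplet of fat cells, measured 0.310, 1.71 and 3.36 across the PBS libraries versus 0.118, 0 and 0.0381 RPKM across LCWE. The 2 groups did not overlap, and the gene was too low to be tested. Cidec (chr6:113424634-113435760, minus strand) encodes a protein that fuses droplets into larger ones, in fat cells and also in enterocytes and fatty liver. It had 32.1, 32.0 and 29.5 RPKM with PBS, against 12.3, 5.17 and 3.63 RPKM with LCWE. All 3 PBS libraries were thus alike, and every LCWE library was below them. The difference was -2.24 (SE 0.38; 95% interval -3.16 to -1.33), a fold of 4.73 lower with an adjusted p of 0.186 by limma. It ranked 67 of the 17510 genes by p. Plin4 (chr17:56100591-56109803, minus strand), a perilipin that coats small nascent droplets, measured 1.12, 2.63 and 3.82 across the PBS libraries versus 1.06, 0.918 and 1.34 RPKM across LCWE. Those groups overlapped (-0.81, SE 0.35; adjusted p = 0.403 by limma).

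Cidec and the hormone genes differed in their spread among the PBS intestines. Adipoq differed 12.1-fold between PBS replicates 2 and 4, Cfd 20.4-fold, Retn 29.8-fold, Plin1 10.8-fold and Lep 6.50-fold, whereas Cidec differed 1.09-fold. Over the 17300 tested genes above 0 in all 3 PBS intestines the median ratio of highest to lowest was 1.23, and 45 genes (0.260%) reached that of Adipoq. Replicate 4 was highest and replicate 2 lowest for 8 of the 10 genes, all but Cidec and Pparg, a pattern that 29.1% of tested genes showed. The level of Cidec was 27.3, 3.99 and 2.08 times that of Adipoq in PBS replicates 2, 3 and 4 and 20.1, 20.7 and 28.3 times in LCWE replicates 1, 2 and 4. PBS replicate 2 thus had the ratio of an LCWE library, at the Cidec level of a PBS library.

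Other genes differed between the same libraries. Fabp2, the fatty acid binding protein of enterocytes, had 9408, 9206 and 5747 RPKM with PBS, against 3350, 2656 and 676 RPKM with LCWE, and Cidec was 0.341%, 0.347% and 0.514% of it in PBS and 0.367%, 0.195% and 0.537% in LCWE. The groups overlapped for that share, while they did not for Cidec itself. Fabp1, a fatty acid binding protein of the upper small intestine, measured 1579, 398 and 98.2 across the PBS libraries versus 50.9, 75.2 and 123 RPKM across LCWE. Fabp6, the bile acid binding protein of the ileum, had 69.4, 1716 and 2991 RPKM with PBS, against 4837, 4843 and 3517 RPKM with LCWE. Fabp6 was thus higher in every LCWE intestine, Fabp1 overlapped between the groups, and both differed widely among the PBS libraries. Their part in the values of Cidec and of the hormones was not tested.

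**Figure D2:**
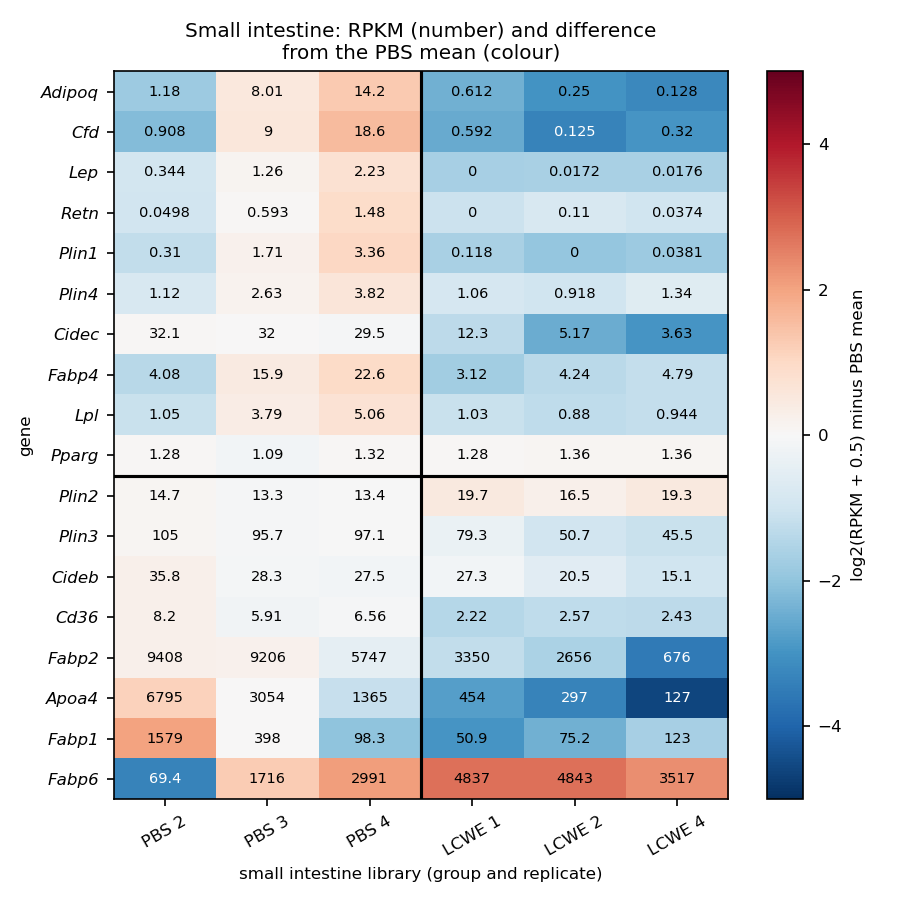
RPKM (numbers) and difference of log2(RPKM + 0.5) from the mean of the PBS libraries (colour) in the 6 small intestine libraries; the black lines part the 10 genes from comparison genes and PBS from LCWE. PBS replicate 2 is low for the hormones and Fabp6 (69.4 RPKM) and high for Fabp1 (1579 RPKM), while Cidec is even over the 3 PBS libraries.

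Summed over the 10 listed markers of absorptive enterocytes, LCWE intestines reached 3709 to 10940 RPKM and PBS intestines 15660 to 27190 RPKM, and all 10 markers were lower in the mean. Of 11 marker lists, 9 had summed levels that overlapped between the intestinal groups, namely endothelium (20.0 to 28.1 RPKM in PBS, 20.0 to 34.7 in LCWE), macrophages (109 to 145 and 135 to 192), smooth muscle, fibroblasts, hepatocytes, exocrine pancreas, lymphoid follicle, lymphatic endothelium and brown fat. The mesothelial sum was higher in LCWE, but Krt19, which epithelium also makes, was 99.9% of it, and the mesothelial gene Msln stood at 0.0296 to 0.125 RPKM in PBS and 0.0545 to 0.154 RPKM in LCWE. Ucp1, which defines brown fat, had 0 reads in all 6 intestinal libraries, and Cox7a1 was 91.1% of the brown fat sum. Zg16 was 99.4% of the exocrine pancreas sum, whose first gene Prss2 reached at most 0.0725 RPKM. The brown fat and pancreas sums therefore do not describe those cell types. The part of these cells in the results was not tested.

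The genes of fatty acid handling differed among themselves, with Fabp4 and Lpl lower in the mean of LCWE intestines and Pparg near its PBS level. Fabp4 (chr3:10204088-10208576, minus strand) encodes the fatty acid carrier of fat cells, which capillary endothelium and macrophages also make. It measured 4.08, 15.9 and 22.6 across PBS intestines versus 3.116, 4.24 and 4.79 RPKM across LCWE intestines, and PBS replicate 2 lay among the LCWE libraries (-1.42, SE 0.57; adjusted p = 0.385 by limma). Lpl (chr8:68880491-68907448, plus strand) encodes lipoprotein lipase, which frees fatty acids from circulating lipoproteins. It had 1.05, 3.79 and 5.06 RPKM with PBS, against 1.03, 0.880 and 0.944 RPKM with LCWE. The groups did not overlap, though PBS replicate 2 was close to the nearest LCWE library (-1.20, SE 0.45; adjusted p = 0.36 by limma). Pparg (chr6:115360951-115490399, plus strand) encodes the fat cell nuclear receptor. It measured 1.28, 1.09 and 1.32 across the PBS libraries versus 1.28, 1.36 and 1.36 RPKM across LCWE, with a difference of 0.09 (95% interval -0.20 to 0.37) that turned to -0.03 after quantile scaling.

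Over all 10 genes, 6 had intestinal groups that did not overlap, each lower in LCWE, namely Adipoq, Lep, Cfd, Plin1, Cidec and Lpl. Lep and Plin1 were not among the genes tested, so over tested genes the count was 4 of 7, beside 6.15% of all tested genes in that direction and 13.2% in the other. Nothing is read from that count, since the filter favoured a difference for Adipoq and Cfd. In 1 fit over the 4 groups, 213 of 18619 genes passed by limma, among them Adipoq (adjusted p = 0.0445) and Cidec (adjusted p = 0.0281). Adipoq passed the filter of that fit only through the PBS intestines and intestinal LCWE replicate 1, so its value there is a description. In the fit of the intestine alone, without LCWE replicate 1, Cidec passed by limma (-2.71, adjusted p = 0.0164) among 70 genes. Without PBS replicate 2 the difference of Adipoq was -3.79 (adjusted p = 0.208).

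Liver held almost no reads of the hormone genes. Adipoq had 2, 2 and 0 reads in PBS livers and 4, 5 and 1 in LCWE livers. Lep had 2 reads in PBS replicate 2 and 0 in the other 5 livers, Retn had 0 in all 6, and Plin1 had 0 in PBS and 0, 2 and 2 in LCWE. None of these reached the filter, and at 0 reads up to 3 per library cannot be seen, or more if reads are not independent. Cfd stood apart in 1 library. It had 287 reads (6.97 RPKM) in liver PBS replicate 2 against 2 and 0 in the other PBS livers and 2, 0 and 4 in the LCWE livers. That library was also the highest liver for Cidec, at 2.84 RPKM against 0.947 and 0.986 in the other PBS livers and 0.823, 0.384 and 1.01 in the LCWE livers. Its Adipoq level of 0.0324 RPKM was in the range of the other livers.

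In liver, Lpl rose in LCWE and was the 1 gene of the 10 to pass, where 4.04% of the 14404 tested genes did, 3.39% upward and 0.646% downward. Its groups did not overlap, which held upward for 18.7% of tested genes. It had 2.40, 2.0 and 2.23 RPKM in the PBS livers, against 4.72, 4.15 and 4.40 RPKM in the LCWE livers. The rise was 1.82-fold (log2 difference 0.86, SE 0.11; adjusted p = 0.0139 by limma), and the authors' deposited table gives a log2 fold change of 1.02 with a false discovery rate of 0.00416. The call was lost without any 1 of 5 livers, with adjusted p from 0.0515 to 0.0876 (PBS replicate 3 or 4, LCWE replicate 1, 2 or 4), and held without PBS replicate 2 (0.0133). It was also lost in 1 fit over the 4 groups (0.221) and with the replicate number as a block (0.410). Pparg measured 3.09, 3.119 and 3.83 across PBS livers versus 2.06, 2.46 and 2.32 RPKM across LCWE livers, lower without overlap, as 8.84% of tested genes were. It did not pass (-0.47, SE 0.13; adjusted p = 0.104 by limma), though it did in 1 fit over the 4 groups (adjusted p = 0.0391).

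The other liver values overlapped between the groups. Fabp4 had 2.5, 1.26 and 1.34 RPKM with PBS, against 2.22, 2.97 and 3.91 RPKM with LCWE (0.70, SE 0.26; adjusted p = 0.219 by limma). Plin4 measured 0.869, 0.715 and 1.29 across the PBS libraries versus 0.889, 1.02 and 2.16 RPKM across those with LCWE (0.30, SE 0.28; adjusted p = 0.614 by limma). The difference of Cidec was -0.67 (SE 0.37; adjusted p = 0.391 by limma). Macrophages, which make both Lpl and Fabp4, had summed markers of 155 to 212 RPKM in PBS livers and 373 to 649 RPKM in LCWE livers, with 10 of 10 markers higher in the mean, of which 5 rose. The summed endothelial markers overlapped, at 31.4 to 35.7 RPKM in PBS and 34.1 to 38.0 RPKM in LCWE, but single markers differed. Of 8 tested, 3 were higher and 5 lower in LCWE, and 0 passed. The first marker Pecam1 was higher without overlap, at 3.155 to 3.56 RPKM in PBS livers and 4.21 to 6.11 RPKM in LCWE livers. Fibroblast and lymphatic endothelial sums were also higher in LCWE livers without overlap. Dcn was 65.8% of the fibroblast sum and overlapped between the groups. All 7 fibroblast markers tested were higher in the mean, and 0 passed. Prox1 was 39.7% of the lymphatic sum and overlapped between the groups, while Pdpn was at most 0.285 RPKM in LCWE livers. That sum is therefore not read as an amount of lymphatic endothelium. The hepatocyte sum was lower in LCWE livers, and Alb was 49.6% of it. Of its 8 markers 5 were higher and 3 lower in the mean, and 0 passed. The hepatocyte sum is therefore not read as an amount of hepatocytes. The sums of the exocrine pancreas and brown fat lists were lower as well, but Cela1 was 68.7% of the first and Elovl3, which was at 137 to 283 RPKM over the livers, 95.2% of the second, with Ucp1 at 0 reads in 5 livers and 2 in the other. Those sums therefore do not describe these cell types. The part of these cell types in the rise of Lpl was not tested.

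**Figure D3:**
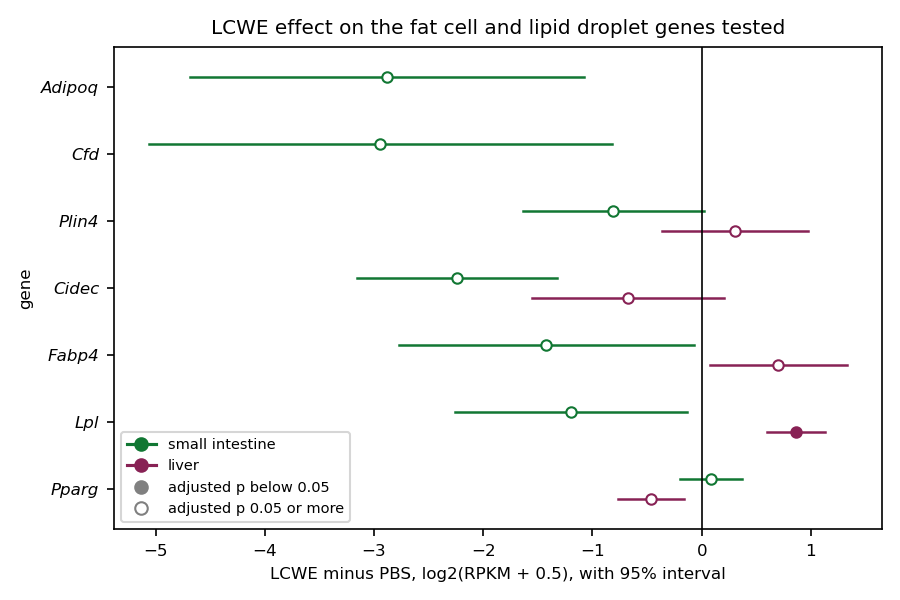
LCWE minus PBS difference on the log2(RPKM + 0.5) scale with its 95% interval from limma, for the genes that passed the filter in small intestine (7 genes) or liver (5 genes); filled points have an adjusted p below 0.05. Lpl in liver (0.86) is the 1 filled point. Lpl, Fabp4, Plin4 and Pparg each lie on opposite sides of 0 in the 2 tissues, while Cidec is below 0 in both.

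To test whether LCWE acted alike in both tissues, the effect in intestine was subtracted from that in liver within a joint model of all 12 libraries, where 137 of 18619 genes (0.736%) passed and 0 of the 7 tested of the 10 did. The nearest was Lpl, with a difference of 2.06 (SE 0.50; adjusted p = 0.0854 by limma). Adipoq had 2.97 (SE 0.84; adjusted p = 0.135), Fabp4 2.12 (adjusted p = 0.196) and Pparg -0.55 (adjusted p = 0.144). Each of Lpl, Adipoq and Fabp4 passed in 1 of 20 alternatives, the one without intestinal PBS replicate 2 (Lpl 2.61, adjusted p = 0.000545; Adipoq 3.89, adjusted p = 0.00199; Fabp4 2.82, adjusted p = 0.0243). In the other 19 none of the 3 passed. For Adipoq this contrast rests on the intestine, since liver had at most 5 reads. Adipoq also passed the filter only through the PBS intestines and intestinal LCWE replicate 1, so a difference was favoured and its values are a description.

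Between the PBS groups, the liver level was lower than intestine for Cidec (-4.04, SE 0.41; adjusted p = 3.19e-06 by limma) and Fabp4 (-2.497; adjusted p = 0.000581), and higher for Pparg (1.15, SE 0.11; adjusted p = 2.32e-06). Adipoq had -3.50 (adjusted p = 0.000208 by limma), but it passed the filter through intestinal libraries alone, so a lower liver level was built in and its value is a description. In this comparison 77.1% of the 18619 genes tested passed, 60.5% lower in liver and 16.6% higher, and the median of all genes was -0.69, or -0.03 after quantile scaling. Plin4 passed (-0.96; adjusted p = 0.0224) but not after quantile scaling (-0.15) or median-ratio scaling (-0.37). It was also lost without intestinal PBS replicate 3 (adjusted p = 0.0652) or 4 (0.1) or without liver PBS replicate 2 (0.0571) or 3 (0.0723). Cfd did not pass (-2.31; adjusted p = 0.0603) but did without liver PBS replicate 2 (-3.58; adjusted p = 0.00271), without intestinal PBS replicate 2 (-3.40; adjusted p = 0.00749) and with a pseudocount of 0.1 (-3.52; adjusted p = 0.0446). Apart from liver PBS replicate 2, Cfd reached 0.5 RPKM in intestinal libraries alone. A lower liver level was thus favoured by the filter, and built in without that liver, so these values of Cfd are a description. Lpl did not pass (-0.30), and its sign turned under scaling (0.47 quantile, 0.37 median-ratio) and without intestinal PBS replicate 4 (0.07), while without intestinal PBS replicate 2 it passed (-0.85; adjusted p = 0.000256). Of the 10 genes, 6 did not overlap and were lower in liver (Adipoq, Lep, Retn, Plin1, Cidec and Fabp4), of which Lep, Retn and Plin1 were not tested. Over tested genes the count was 3 of 7, beside 62.4% of all tested genes, and Pparg was higher without overlap, as 17.4% were. By mean level in PBS intestine the order was Cidec (31.2 ± 1.44 RPKM, SD, n = 3), Fabp4 (14.2 ± 9.37), Cfd (9.49 ± 8.84), Adipoq (7.79 ± 6.51), Lpl (3.297 ± 2.05), Plin4 (2.52 ± 1.35), Plin1 (1.79 ± 1.53), Lep (1.28 ± 0.945), Pparg (1.23 ± 0.122) and Retn (0.709 ± 0.724). From Fabp4 down, neighbours in this order differed by less than the larger of their SDs. In PBS liver Pparg led (3.35 ± 0.419), followed by Cfd (2.34 ± 4.004, from 1 library) and Lpl (2.21 ± 0.200).

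The other lipid droplet genes gave no call within either tissue. Of 25 listed, 20 were tested in the intestine and 22 in liver, and 0 passed. In the intestine 13 were lower and 7 higher, with a median of -0.07 beside 0.11 over all genes, of which 31% were lower and 69% higher. In liver 14 were lower and 8 higher, with a median of -0.12 beside 0.06 over all genes, of which 39.8% were lower and 60.2% higher. Plin3, an exchangeable perilipin, was the most abundant perilipin of PBS intestine, at 105, 95.7 and 97.1 RPKM, and stood at 79.3, 50.7 and 45.5 RPKM in LCWE. Plin2, which coats droplets in most cells, was at 14.7, 13.3 and 13.4 RPKM with PBS and, higher without overlap, at 19.7, 16.5 and 19.3 RPKM with LCWE. In liver Plin2 had 114, 108 and 99.4 RPKM with PBS, against 73.1, 79.6 and 85.9 RPKM with LCWE, all lower. Its tissue difference passed (-0.83, SE 0.15; adjusted p = 0.0305 by limma), as it did in 11 of 20 alternatives. Among enzymes of triglyceride turnover in the intestine, Dgat2, which makes triglyceride, measured 9.28, 9.06 and 9.49 across the PBS libraries versus 6.12, 5.20 and 4.47 RPKM across those with LCWE (-0.77; adjusted p = 0.186 by limma). Lipe, the hormone-sensitive lipase, had 14.3, 11.1 and 9.37 RPKM with PBS, against 5.18, 6.81 and 4.22 RPKM with LCWE (-1.03; adjusted p = 0.213 by limma). Lpcat2, which makes phosphatidylcholine at the droplet surface, differed by 0.54 in liver (adjusted p = 0.0652 by limma) and passed with voom (adjusted p = 0.0438).

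**Figure D4:**
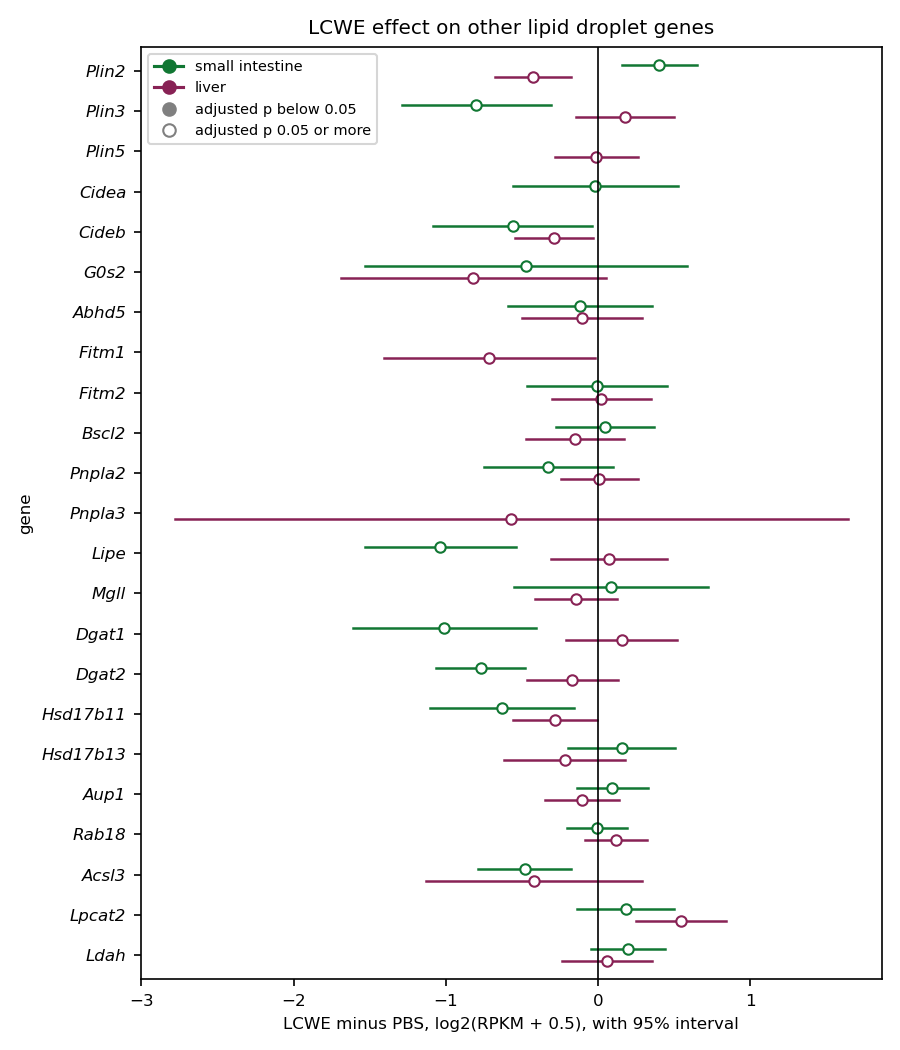
LCWE minus PBS difference on the log2(RPKM + 0.5) scale with its 95% interval from limma, for other lipid droplet genes tested in small intestine or liver; no point is filled because none reached an adjusted p below 0.05. Plin2 lies above 0 in the intestine (0.40) and below 0 in liver (-0.43).

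Of 30 other fat cell gene symbols, 29 were in the table and 18 were tested in each tissue, and 0 passed. In the intestine 10 were lower and 8 higher, with a median of -0.04 beside 0.11 over all genes, and in liver 12 were lower and 6 higher (median -0.14). Several of its genes are not made by fat cells alone. Pck1, the enzyme that starts glucose and glycerol synthesis, had the smallest p in the intestine (-0.65; adjusted p = 0.186 by limma). Car3, a carbonic anhydrase abundant in fat and liver, measured 2.45, 9.98 and 16.6 across PBS intestines versus 1.43, 1.53 and 4.20 RPKM across LCWE intestines, the order of Adipoq within PBS. Thrsp, a lipogenic factor of fat and liver, had that order too, at 1.45, 5.62 and 8.28 RPKM with PBS and 1.02, 1.29 and 2.63 RPKM with LCWE. Both overlapped between the groups. Pnpla3, a lipase of fat cells and liver, was at 0.198, 0.673 and 1.24 RPKM with PBS and, lower without overlap, at 0.128, 0.0621 and 0.102 RPKM with LCWE, too low to be tested. Adig, a small fat cell protein, had 2, 10 and 13 reads with PBS and 2, 0 and 0 with LCWE, and Mrap, a melanocortin receptor partner, 4, 20 and 24 against 2, 4 and 2. These 5 genes were picked once their values were known, and all had lower means in LCWE intestines. Others of the list had higher means there, such as Acvr1c (1.53 RPKM in PBS and 1.63 in LCWE), Sncg (21.1 and 23.1) and Itih5 (7.43 and 9.46). Those were picked in the same way, as was Cidea, a droplet protein of brown fat. Cidea stood at 1.19 RPKM in liver PBS replicate 2 and at most 0.0655 RPKM in the other 5 livers. In liver the smallest p belonged to Ccdc80, a matrix protein of fat cells and fibroblasts (0.81; adjusted p = 0.0693), and Angptl8, a feeding-induced inhibitor of lipoprotein lipase. Angptl8 had 187, 125 and 88.6 RPKM with PBS, against 32.7, 74.1 and 34.5 RPKM in the LCWE livers (-1.53; adjusted p = 0.0808 by limma), while Lpl was higher in the same livers.

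Of 20 genes for partners of lipoprotein lipase and for fatty acid uptake, 19 were tested in each tissue and 0 passed (10 lower and 9 higher in both, medians 0.00 and -0.07). Cd36, a fatty acid receptor of enterocytes, fat cells and endothelium, had the second smallest p of all genes in the intestine. It measured 8.20, 5.91 and 6.56 across the PBS libraries versus 2.22, 2.57 and 2.43 RPKM across LCWE, without overlap (-1.34, SE 0.14; adjusted p = 0.154 by limma). In liver its groups overlapped (0.18), and the tissue difference passed (1.51, SE 0.27; adjusted p = 0.0307), as it did in 9 of 20 alternatives. Apoc2, the activator of lipoprotein lipase, had 140.5, 66.0 and 29.8 RPKM in the PBS intestines, against 9.01, 12.4 and 9.77 RPKM in the LCWE intestines (-2.60; adjusted p = 0.204 by limma). Sel1l, which is needed for the folding of lipoprotein lipase, differed by 1.09 in liver (adjusted p = 0.0688) and Fabp2 by -0.89 (adjusted p = 0.0674), and neither passed by limma.

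Of 25 partners of PPARG and regulators of fat cell formation, 19 were tested in the intestine and 17 in liver, and 0 passed. Medians were 0.06 and 0.03, close to those of all genes. The coactivator Ppargc1a differed by -0.54 in the intestine (adjusted p = 0.327) and by 0.77 in liver (adjusted p = 0.0744), where it stood at 0.775, 1.29 and 1.12 RPKM in PBS and 2.48, 1.67 and 2.32 RPKM in LCWE. Klf5, a factor of fat cells and of crypt epithelium, differed by 0.30 in the intestine (adjusted p = 0.308), and Srebf1, the factor of fatty acid synthesis, by -0.85 in liver (adjusted p = 0.0660), all by limma. Ppargc1a (adjusted p = 0.0497) and Srebf1 (adjusted p = 0.0482) passed in liver with voom. Of 6 receptors and adaptors for the hormones, 5 were tested in the intestine and 4 in liver, and 0 passed. Adipor2, an adiponectin receptor, measured 65.4, 57.1 and 48.2 across PBS intestines versus 28.6, 39.3 and 26.3 RPKM across LCWE intestines (-0.86; adjusted p = 0.221 by limma). Lepr, the leptin receptor, differed by 0.26 there (adjusted p = 0.527). The receptor adaptor Appl1 (0.35; adjusted p = 0.219) and Cap1, a reported resistin receptor (0.42; adjusted p = 0.381) had the smallest p of the list in liver by limma.

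The profile of Adipoq over the 6 intestinal libraries was compared with those of 14919 other genes with a mean of at least 1 RPKM, as a description. These libraries share a tissue and are split by treatment. Among the 10 genes, Cfd (r = 0.992) ranked 3, Lpl (0.978) 6, Plin4 (0.936) 42, Fabp4 (0.934) 44, Cidec (0.804) 305 and Pparg (-0.550) 11141. The 6 most alike outside them were Crkl (0.995), Etv3l (0.995), Kdm2a (0.991), Acsf2 (0.987), Ticam1 (0.976) and Gm12482 (0.974). Their levels spanned far narrower ranges than Adipoq. Crkl ran from 3.17 to 3.92 RPKM and Kdm2a from 8.66 to 10.2 RPKM, and Acsf2 had the widest range of the 6, from 13.9 to 33.7 RPKM, over the same libraries.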

How the data were processed

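RNA of small intestine and liver was sequenced in 12 libraries, 3 in each of 4 groups taken from the labels. Per the file headers, the authors deposited RPKM per gene and library. The submitters' processing notes list mm10 as build and, with no roles, the tools Trimmomatic (0.36), featureCounts, Subread (1.5.1) and edgeR (3.12.1). Which aligner was used and whether counting used strand was not stated there. Of 16 library columns 4 matched no sample and were left unused, as were 12 RPKM columns of the authors' differential table. From that deposited table only the p-value, the false discovery rate and the log2 fold change were copied.

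Multiplying each RPKM by gene length and depth returned whole reads in 100.0% of cases (tolerance 0.001). Each tissue was modelled apart in limma (version 3.58.1, under R 4.3.3) on log2(RPKM + 0.5), with a mean-variance trend and two-sided moderated tests, for genes at 0.5 RPKM or more in 3 libraries. Comparisons between tissues used all 12 libraries together. Intervals use the moderated degrees of freedom. The code was tested on simulated data.

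The genes and lists were chosen with earlier results of these data known. All 10 genes are named. Of 5 other lists, the 2 genes with the smallest p in each tissue and all that passed are named. Plin3, Car3, Thrsp, Pnpla3, Adig, Mrap, Acvr1c, Sncg, Itih5, Cidea, Fabp5, Ncor1 and Rab18 were added after their values were seen. The 6 genes most like Adipoq had to average 1 RPKM. Alternatives were other pseudocounts (0.1 or 1), other filters (none, or RPKM 1), scaling by quantiles or by median ratio, limma voom on the recovered reads, 1 fit over the 4 groups, the replicate number as a block, and each library left out in turn. Positions were checked against GENCODE M21 and differed by at most 1 base.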

Additional observations from a re-analysis of the deposited data

Results flagged for a closer look

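Plin2 and Cd36 are given here because their LCWE effects differed between the tissues by a test of the difference itself, adjusted over 18619 genes by limma. For Plin2 the liver effect minus the intestinal effect was -0.831 on the log2 scale, from a difference of 0.40 in the intestine and -0.43 in liver. For Cd36 it was 1.51, from -1.34 in the intestine and 0.18 in liver. Neither gene passed within a single tissue. Over 20 alternatives the adjusted p ran from 0.028 to 0.107 for Plin2, which passed in 11, and from 0.0117 to 0.0945 for Cd36, which passed in 9. Both calls were lost with median-ratio scaling, with the replicate block and without intestinal PBS replicate 2 or 3, intestinal LCWE replicate 4, liver PBS replicate 3 or liver LCWE replicate 1 or 2. That of Plin2 was also lost with quantile scaling, and that of Cd36 with no filter and without intestinal LCWE replicate 2 or liver PBS replicate 4.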

How the results depend on the processing

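Replicate numbers were not shown to pair libraries: same-numbered intestine and liver correlated at -0.0527 to 0.0822, and PBS and LCWE share only numbers 2 and 4. With the replicate block, 0 genes were called in the intestine (Cidec adjusted p = 0.0933), 24 in liver with 0 of the 10 genes (Lpl 0.763, adjusted p = 0.41), and 12 for the tissue difference. The 582 genes called in liver became 335 with no filter and 898 in 1 fit over the 4 groups. In the intestine that fit called 213 genes and 2 of the 10, Cidec and Adipoq, the latter a description because of the filter. Of the liver calls 84.0% were higher, 73.4% after quantile and 74.0% after median-ratio scaling. Median-ratio scaling gave 206 genes for the tissue difference in place of 137. Between PBS tissues, 21.6% of calls were higher in liver, 48.5% after quantile and 47.0% after median-ratio scaling. With no filter 8 of the 10 genes passed in place of 5, because more were tested. Over all genes 16959 of 33418 passed with no filter and 14361 of 18619 in the main fit. Added were Lep, Retn and Plin1, which had almost no reads in liver. The 5 include Adipoq, whose lower liver level was built in by the filter. Nothing is read from these counts.

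Leaving out 1 library gave 0 to 70 genes in the intestine (70 without LCWE replicate 1) and 0 to 1 of the 10, 55 to 943 genes in liver (55 without LCWE replicate 2, 943 without PBS replicate 2) and 0 to 1 of the 10, and 20 to 461 genes for the tissue difference (20 without liver PBS replicate 3, 461 without intestinal LCWE replicate 1) and 0 to 3 of the 10.

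Signs turned for Pparg in the intestine (-0.0272, quantile scaling) and for Lpl between PBS tissues (0.467 quantile, 0.371 median-ratio, and -0.852 to 0.0708 over left-out libraries). Of 740 values for single genes and settings, 673 kept direction and side of the threshold, 30 newly passed, 33 no longer passed and 4 turned. Apart from the alternative's own construction, the cause was not tested. Depth limits Lep, Retn and Plin1 in LCWE intestine and the hormones in liver.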
